A study of Mus musculus with 4 samples.

Results

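The 36 genes described here are those of neutrophil granules and of neutrophil maturation, followed in RNA of regulatory T (Treg) cells from mouse spleen. They were taken by symbol from the deposited table of read counts, and all 36 were found among its 20837 genes. The table holds 4 libraries. The 2 libraries labelled WT have the genotype Foxp3YFP-CreKmt2d+/+ and the 2 labelled cKO the genotype Foxp3YFP-CreKmt2dfl/fl, so both groups carry the Foxp3-driven Cre recombinase and differ in whether Kmt2d, a histone H3 lysine 4 methyltransferase gene, can be deleted by it. Foxp3 drives the Cre, so a neutrophil itself is not a cell in which the deletion is intended. The extraction protocol in the labels speaks of bone marrow-derived macrophages of another knockout, TGM2KO, which goes against the tissue, cell type and genotype fields, and the groups follow those fields. Separate mice are not named for the libraries within a group, and p-values therefore reflect the variation among these 4 libraries, part of which may be technical.

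A Treg cell is a CD4 T cell that restrains immune responses, and it is not known for making neutrophil granules. Neutrophils arise in the bone marrow from promyelocytes that fill primary (azurophil) granules with myeloperoxidase and serine proteases. Their myelocyte and metamyelocyte descendants make secondary (specific) granules with lactoferrin, cathelicidin and lipocalin, and later cells make gelatinase granules and the surface receptors with which a mature neutrophil leaves the marrow and follows chemokines. Transcripts of each granule class are made mostly while that class is being filled, so that their messages mark the stage of maturation. The genes were grouped accordingly into 6 primary, 13 secondary and 12 late genes, and 5 that monocytes, macrophages or other granulocytes are also known to express. This grouping does not mean that the genes placed by stage are made by neutrophils alone.

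Total counts per library lay between 28442416 and 35560491, so that 3 counts, the limit that a count of 0 allows, correspond to 0.0864 to 0.103 CPM. Intervals made from counts cover counting error only. Levels below are in CPM, the read count of a gene relative to the library total, scaled by edgeR's TMM factors. Markers of the labelled cell type were present, with Foxp3 at 278 and 250 CPM in WT and 170 and 180 CPM in cKO, and Cd3e at 378 and 404 CPM in WT and 392 and 367 CPM in cKO. Kmt2d transcripts were not lower in cKO but slightly higher (721 and 704 CPM in WT, 836 and 793 CPM in cKO). The log2 fold change was 0.19 (SE 0.05, edgeR adjusted p = 0.0375). A count over the whole gene includes exons outside the deleted part and does not check the labels.

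Of the 36 neutrophil genes, 32 rose in cKO, 0 fell and 4 did not pass the test (edgeR quasi-likelihood test, adjusted p under 0.05 over all 13861 genes tested). Among all genes tested 16.5% rose and 15.1% fell. The median log2 fold change was 2.80 over the 36 genes and 0.0003 over all genes tested. In 23 of the 36 genes the rise passed and was at least 4-fold (log2 fold change of at least 2), which held for 1.5% of all genes tested, and in 31 it was at least 2-fold (4.97% of all genes tested). Both cKO libraries lay above both WT libraries for 34 of the 36 genes and for 35.1% of all genes tested. All 36 passed the filter on low counts, 29 of them on their WT libraries alone. Of those 29 genes 26 rose, 17 of them at least 4-fold. Their median log2 fold change was 2.56, and for 27 of them both cKO libraries lay above both WT libraries. Ms4a3, Chil1, Cebpe, Lrg1, Ly6g, Clec5a and Trem3 needed their cKO libraries to pass the filter. A higher cKO level is thus part of how these were kept. In bulk RNA, more cells of a type and more RNA per cell cannot be told apart.

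**Figure D1:**
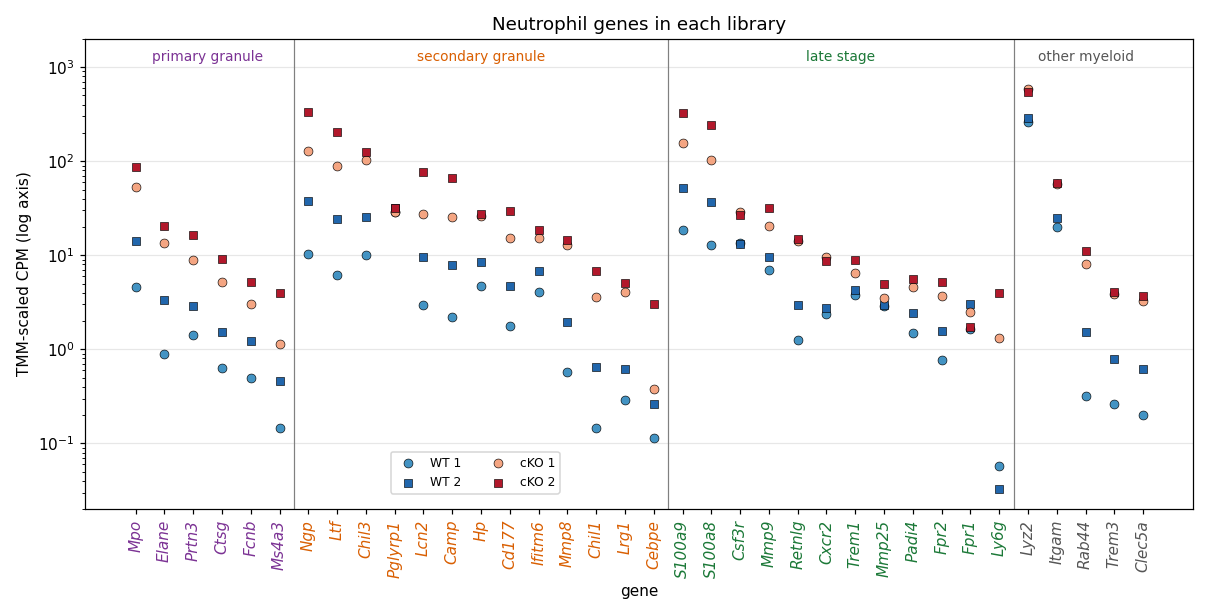
Level of each of the 36 genes (TMM-scaled CPM, log axis) in WT 1, WT 2, cKO 1 and cKO 2, 1 point per library, grouped by stage and ordered by mean level. The cKO points lie above the WT points for 34 of the 36 genes, and Pglyrp1 and Fpr1 are the 2 whose groups overlap.

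The libraries also differed inside each group. In 30 of the 36 genes the 4 libraries stood in the same order, with WT 1 lowest, then WT 2, then cKO 1, and cKO 2 highest, an order found in 9.77% of all genes tested. Summed over the 36 genes, the level was 428 CPM in WT 1, 628 CPM in WT 2, 1571 CPM in cKO 1 and 2390 CPM in cKO 2. The lysozyme gene Lyz2 made up much of the WT sums, and without it they were 167, 342, 987 and 1846 CPM in the same order. Per kilobase of exon, which allows levels of different genes to be compared, Lyz2 was the most abundant of the 36 in WT 1, WT 2 and cKO 1 (198, 217 and 444 CPM per kb), and S100a9 was in cKO 2 (625 CPM per kb, with Lyz2 at 413). In cKO 1 S100a9 came second, at 298 CPM per kb. S100a8 and Ngp came after Lyz2 and S100a9 in both cKO libraries, at 147 and 104 CPM per kb in cKO 1 and 352 and 275 CPM per kb in cKO 2.

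Since most of these genes moved together, the sequences before the starts of 6 of them are shown, 2 primary (Mpo and Elane), 3 secondary (Ltf, Ngp and Mmp8) and 1 late (Retnlg). Each is the 250 bases upstream of the RefSeq start on GRCm38.p6 (the assembly of mm10), all on the plus strand: chr11:87793534-87793783 for Mpo, chr10:79886062-79886311 for Elane, chr9:111019042-111019291 for Ltf, chr9:110419558-110419807 for Ngp, chr9:7558179-7558428 for Mmp8 and chr16:48872358-48872607 for Retnlg. Capitals mark matches on either strand to TTGCNNAA, a form of the site known for C/EBP factors, and to GAGGAAG, a form of the site known for the ETS factor PU.1.
Mpo: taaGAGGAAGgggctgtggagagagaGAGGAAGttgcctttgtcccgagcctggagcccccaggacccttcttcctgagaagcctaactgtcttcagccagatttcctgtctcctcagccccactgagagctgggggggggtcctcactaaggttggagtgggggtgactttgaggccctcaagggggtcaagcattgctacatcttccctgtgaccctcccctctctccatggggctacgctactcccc
Elane: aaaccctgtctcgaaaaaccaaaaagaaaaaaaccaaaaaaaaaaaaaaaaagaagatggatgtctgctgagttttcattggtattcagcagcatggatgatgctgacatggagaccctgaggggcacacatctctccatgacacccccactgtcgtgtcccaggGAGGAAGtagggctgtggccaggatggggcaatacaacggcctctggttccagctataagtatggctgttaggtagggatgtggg
Ltf: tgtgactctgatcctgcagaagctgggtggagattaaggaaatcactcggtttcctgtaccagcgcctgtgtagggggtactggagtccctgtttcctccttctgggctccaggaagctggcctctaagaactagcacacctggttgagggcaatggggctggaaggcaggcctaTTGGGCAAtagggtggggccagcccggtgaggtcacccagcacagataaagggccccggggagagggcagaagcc
Ngp: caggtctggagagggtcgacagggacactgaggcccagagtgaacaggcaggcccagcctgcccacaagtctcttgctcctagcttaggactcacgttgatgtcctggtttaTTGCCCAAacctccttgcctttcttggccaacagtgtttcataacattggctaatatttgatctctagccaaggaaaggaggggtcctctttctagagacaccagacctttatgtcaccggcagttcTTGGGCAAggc
Mmp8: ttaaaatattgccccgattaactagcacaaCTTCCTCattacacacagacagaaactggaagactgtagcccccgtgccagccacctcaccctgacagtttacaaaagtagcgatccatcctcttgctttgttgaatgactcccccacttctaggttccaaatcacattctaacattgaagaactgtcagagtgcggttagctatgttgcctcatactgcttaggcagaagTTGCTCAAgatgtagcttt
Retnlg: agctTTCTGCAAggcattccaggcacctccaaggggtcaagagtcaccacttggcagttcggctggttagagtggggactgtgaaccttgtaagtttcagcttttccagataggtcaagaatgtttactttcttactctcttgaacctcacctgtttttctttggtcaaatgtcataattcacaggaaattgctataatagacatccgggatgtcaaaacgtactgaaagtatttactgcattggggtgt

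The primary genes Mpo (matches starting at -247 and -224 from the start) and Elane (-85) show GAGGAAG and no TTGCNNAA. Ltf (-75) and Ngp (-138 and -11) show TTGCNNAA and no GAGGAAG, Mmp8 shows both (-19 for TTGCNNAA and -220 for GAGGAAG), and Retnlg has TTGCNNAA far from the start (-246). RefSeq windows of this kind were matched for 31 of the 36 genes. Each of the 6 shown holds a match, which is not so for all 31. TTGCNNAA was found in 8 of these 31, against 10.8% of the windows of 27025 genes. Of the 8, 4 were secondary genes (Ltf, Ngp, Lcn2 and Mmp8), out of 11 with a window. The rest were 1 of 6 primary genes (Fcnb), 3 of 11 late genes and 0 of 3 shared genes. GAGGAAG was found in 13 of the 31, against 12.0% of all genes, and in 4 of 6 primary genes (Mpo, Elane, Prtn3 and Ctsg). It was also found in 3 of 11 secondary, 4 of 11 late and 2 of 3 shared genes. Pglyrp1 and Mmp25, which did not pass the test between groups, were among them. Other letters searched on both strands were the shorter GAGGAA, which contains every GAGGAAG match (18 of 31, all genes 25.9%), TATAAA (9 of 31, all genes 14.3%) and TTNNGCAAT, whose matches are all matches of TTGCNNAA (2 of 31, all genes 2.24%). The forms TTGCNCAA (6 of 31, all genes 2.99%) and TTGCGCAA (0 of 31, all genes 0.185%) are narrower versions of TTGCNNAA, and TTNCNNAA (20 of 31, all genes 40.3%) is a wider one. These matches describe letters and not binding, and the motifs were chosen with the members known.

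All 6 primary genes rose, with a median log2 fold change of 2.84 and edgeR adjusted p between 0.00864 and 0.0298. Mpo (chromosome 11, 87793784 to 87804412), which encodes the peroxidase that makes hypochlorous acid, measured 4.58 CPM in WT 1, 14.1 CPM in WT 2, 53.6 CPM in cKO 1 and 86.9 CPM in cKO 2. The groups did not overlap, although WT 2 held 3.08 times the level of WT 1 (exact 95% counting interval 2.56 to 3.72). Its log2 fold change was 2.93 (SE 0.48, edgeR adjusted p = 0.00906).

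The serine protease genes followed the same order of libraries. Elane, encoding neutrophil elastase, lay at 0.893 and 3.35 CPM in WT and 13.4 and 20.3 CPM in cKO (log2 fold change 3.02, SE 0.51, edgeR adjusted p = 0.00945). Its neighbour on chromosome 10, Prtn3 for proteinase 3, lay at 1.41 and 2.92 CPM in WT and 8.80 and 16.3 CPM in cKO (log2 fold change 2.56, SE 0.42). Elane starts at 79886312 and Prtn3 at 79879667. For Ctsg, encoding cathepsin G, the values were 0.634 and 1.54 CPM in WT and 5.23 and 9.04 CPM in cKO (log2 fold change 2.74, SE 0.44). In each of these protease genes WT 1 was lowest and cKO 2 highest, and the groups did not overlap. Prtn3 overlaps Plppr3 on the opposite strand in the GENCODE annotation, and since the use of strand is not given in the sources used here, their reads cannot be told apart.

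Fcnb and Ms4a3 are genes of early precursors, Fcnb encoding the secreted lectin ficolin-B and Ms4a3 a membrane protein of granulocyte-monocyte progenitors. Fcnb rose from 0.490 and 1.21 CPM to 3.06 and 5.16 CPM (log2 fold change 2.30, SE 0.45). Ms4a3 had 5 and 14 counts in WT and 33 and 138 counts in cKO, or 0.144, 0.459, 1.13 and 4.00 CPM, with a log2 fold change of 3.13 (SE 0.78, edgeR adjusted p = 0.0298). Within cKO this gene was the least even of the 6, since cKO 2 held 3.52 times the level of cKO 1 (exact 95% counting interval 2.39 to 5.32). Its call was lost without WT 1 (edgeR adjusted p = 0.138), without WT 2 (0.0605) and without cKO 2 (0.0816), and that of Fcnb without WT 1 (0.0553).

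Of the 13 secondary genes, 11 rose and 2, Cebpe and Pglyrp1, did not pass, with a median log2 fold change of 3.21. Ltf encodes lactoferrin, the iron-binding protein that defines the specific granule. It measured 6.14 CPM in WT 1, 24.3 CPM in WT 2, 88.1 CPM in cKO 1 and 203 CPM in cKO 2. The values of Ngp, the neutrophilic granule protein gene, were 10.4 and 37.5 CPM in WT and 127 and 335 CPM in cKO. Camp, encoding the antimicrobial cathelicidin, stood at 2.19 and 7.81 CPM in WT and 25.4 and 66.3 CPM in cKO. These 3 genes lie on chromosome 9, with Camp at 109847377 to 109849456, Ngp at 110419808 to 110423012 and Ltf at 111019292 to 111042766. Lcn2, encoding the siderophore-binding lipocalin, measured 2.94 and 9.52 CPM in WT and 27.2 and 76.8 CPM in cKO.

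In all 4 of these genes the WT libraries lay below the cKO libraries and each group was spread widely, WT 2 holding 3.24 to 3.96 times the level of WT 1 and cKO 2 holding 2.31 to 2.82 times that of cKO 1. Their log2 fold changes were alike, 3.28 for Ltf (SE 0.66), 3.29 for Ngp (SE 0.69), 3.23 for Camp (SE 0.66) and 3.09 for Lcn2 (SE 0.66), with edgeR adjusted p between 0.0159 and 0.0188. Without WT 1 the calls of Ngp (edgeR adjusted p = 0.0560), Camp (0.0629) and Lcn2 (0.0770) were lost while that of Ltf was kept.

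Mmp8, Chil3, Hp and Lrg1 also rose, and differed little between the cKO libraries. Mmp8, the neutrophil collagenase gene, had 0.576 and 1.94 CPM in WT and 12.9 and 14.7 CPM in cKO (log2 fold change 3.48, SE 0.42, edgeR adjusted p = 0.00512). Chil3, encoding the chitinase-like protein Ym1, had 10.1 and 25.3 CPM in WT and 102 and 125 CPM in cKO (log2 fold change 2.69, SE 0.38). Hp, encoding the hemoglobin-binding protein haptoglobin, had 4.70 and 8.40 CPM in WT and 26.3 and 27.5 CPM in cKO (log2 fold change 2.05, SE 0.24). The ratio of cKO 2 to cKO 1 was 1.14 for Mmp8, 1.23 for Chil3 and 1.04 for Hp, and the counting intervals of Mmp8 (0.997 to 1.31) and Hp (0.948 to 1.15) include 1. Lrg1, a secreted leucine-rich glycoprotein gene, measured 0.288 and 0.623 CPM in WT and 4.02 and 5.10 CPM in cKO, a log2 fold change of 3.34 (SE 0.34).

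Cd177, which encodes a surface glycoprotein of neutrophils, rose from 1.76 and 4.66 CPM to 15.3 and 29.5 CPM (log2 fold change 2.83, SE 0.48). Chil1, a chitinase-like gene, had the largest log2 fold change of the secondary genes (3.75, SE 0.59, edgeR adjusted p = 0.00792), on low levels of 0.144 and 0.656 CPM in WT and 3.64 and 6.83 CPM in cKO. Ifitm6, of the interferon-induced transmembrane family, lay at 4.09 and 6.86 CPM in WT and 15.2 and 18.8 CPM in cKO, the smallest rise in the stage (log2 fold change 1.64, SE 0.24). For each of these genes the groups did not overlap. Chil3 and Ifitm6 belong to families of similar genes, among which the authors' counting could have split reads.

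The 2 secondary genes that did not pass did so in different ways. Cebpe, encoding the transcription factor C/EBP epsilon that is needed for secondary granules, had 4 and 8 counts in WT and 11 and 105 counts in cKO, or 0.115, 0.263, 0.378 and 3.04 CPM. Most of its counts lay in cKO 2, which held 8.04 times the level of cKO 1 (exact 95% counting interval 4.31 to 16.6), and its log2 fold change of 3.21 had an SE of 1.08 (edgeR adjusted p = 0.0717). Among the alternatives that left the replicate numbers out, at the same threshold, it passed with DESeq2 (adjusted p = 0.0103) and, in edgeR, with every gene kept in the test and without cKO 1 (adjusted p = 6.67e-04 and 0.00476). Pglyrp1, encoding a peptidoglycan recognition protein, was flat instead, at 28.8 and 32.1 CPM in WT and 28.6 and 31.5 CPM in cKO (log2 fold change -0.016, SE 0.085, edgeR adjusted p = 0.923). In WT 1 it was the most abundant of the secondary genes per kilobase (15.7 CPM per kb, with Ngp next at 8.49), and in cKO 2 it lay below Ngp, Camp, Chil3, Ltf, Lcn2 and Ifitm6 (17.1 CPM per kb, with Ifitm6 at 20.7).

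**Figure D2:**
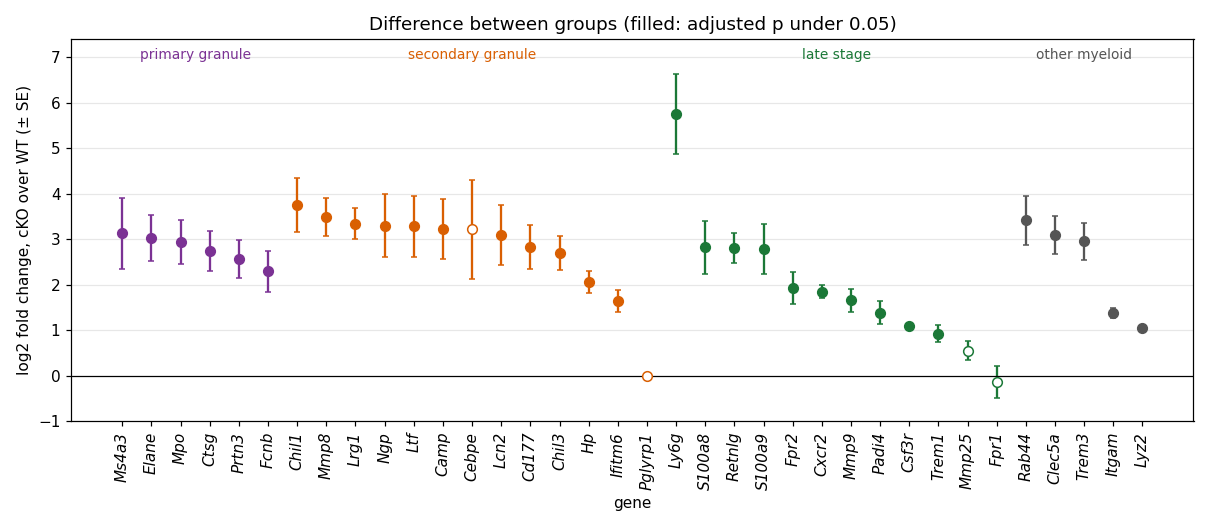
Log2 fold change of cKO over WT with its standard error for each of the 36 genes, grouped by stage, from the edgeR fit on 2 against 2 libraries. Filled points passed the test (adjusted p under 0.05), and the 4 open points are Cebpe, Pglyrp1, Mmp25 and Fpr1.

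Of the 12 late genes, 10 rose and 2, Mmp25 and Fpr1, did not pass, with a median log2 fold change of 1.75. S100a8 and S100a9 encode the paired calcium-binding proteins of calprotectin, which fill the cytosol of neutrophils rather than a granule. S100a8 measured 12.96 and 36.6 CPM in WT and 102 and 244 CPM in cKO. S100a9, its neighbour on chromosome 3, measured 18.7 and 51.6 CPM in WT and 155 and 326 CPM in cKO. Both stood in the order of libraries seen for Ltf and Ngp, with cKO 2 at 2.39 times (S100a8) and 2.10 times (S100a9) the level of cKO 1. Their log2 fold changes were 2.82 (SE 0.59, edgeR adjusted p = 0.0172) and 2.79 (SE 0.55, edgeR adjusted p = 0.0143), and the call of S100a8 was lost without WT 1 (edgeR adjusted p = 0.0597).

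Retnlg, a resistin-like gene of mature neutrophils, rose from 1.27 and 2.95 CPM to 14.3 and 14.9 CPM (log2 fold change 2.81, SE 0.33, edgeR adjusted p = 0.00497). Its cKO libraries were nearly level (ratio 1.04, exact 95% counting interval 0.915 to 1.19). Ly6g, the surface antigen by which mouse neutrophils are sorted, had 2 and 1 counts in WT and 38 and 138 counts in cKO. Pooled over the libraries of each group this is 3 against 176 counts, 60.1 times as much after scaling (exact 95% counting interval 20.2 to 294). The edgeR fit, which keeps the libraries apart, gave a log2 fold change of 5.75 (SE 0.88, edgeR adjusted p = 0.00759). The cKO 2 level was 3.06 times that of cKO 1, so the size of this rise depends on the library. Ly6g belongs to a family of similar genes and its assignment is uncertain.

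The receptor genes Cxcr2, Csf3r and Trem1 rose. Cxcr2, the receptor through which neutrophils follow CXC chemokines out of the marrow, lay at 2.39 and 2.72 CPM in WT and 9.63 and 8.72 CPM in cKO (log2 fold change 1.84, SE 0.14, edgeR adjusted p = 0.00297). Csf3r, the receptor of granulocyte colony-stimulating factor, lay at 13.4 and 13.1 CPM in WT and 29.2 and 27.1 CPM in cKO (log2 fold change 1.09, SE 0.08, edgeR adjusted p = 0.00258). In both genes the libraries of a group lay close together and cKO 2 was not above cKO 1. Trem1, an amplifying receptor of myeloid cells, measured 3.80 and 4.30 CPM in WT and 6.53 and 8.80 CPM in cKO (log2 fold change 0.93, SE 0.19, edgeR adjusted p = 0.0155), a call lost without WT 1 (0.0834) and without cKO 2 (0.0637).

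Formyl peptide receptors, which sense bacterial peptides, went separate ways. Fpr2 rose from 0.778 and 1.58 CPM to 3.68 and 5.16 CPM (log2 fold change 1.93, SE 0.35, edgeR adjusted p = 0.0118). Fpr1 overlapped between the groups, with 1.64 and 3.05 CPM in WT and 2.51 and 1.74 CPM in cKO (log2 fold change -0.14, SE 0.35, edgeR adjusted p = 0.828). Whether these differ from each other was not tested. GENCODE places Fpr3 over Fpr2 on the same strand, so Fpr2 reads may be shared.

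Among the late enzymes, Mmp9, the gelatinase gene that names the third granule class, rose from 6.94 and 9.68 CPM to 20.4 and 31.5 CPM (log2 fold change 1.65, SE 0.25). Padi4, which citrullinates histones when neutrophils cast out their chromatin, rose from 1.498 and 2.43 CPM to 4.64 and 5.53 CPM (log2 fold change 1.38, SE 0.26). Mmp25, a membrane-anchored metalloproteinase gene, had 2.91 and 2.95 CPM in WT and 3.54 and 4.98 CPM in cKO. Both cKO libraries of Mmp25 lay above both WT libraries, but it did not pass (log2 fold change 0.54, SE 0.21, edgeR adjusted p = 0.102), and among the alternatives that left the replicate numbers out it passed with every gene kept in the test (edgeR adjusted p = 0.0441).

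All 5 genes shared with other myeloid cells rose. Lyz2, encoding lysozyme M of granulocytes, monocytes and macrophages, was abundant in every library, at 261 and 286 CPM in WT and 584 and 544 CPM in cKO (log2 fold change 1.04, SE 0.07, edgeR adjusted p = 0.00233). Itgam, encoding the integrin chain CD11b, lay at 20.0 and 24.9 CPM in WT and 56.9 and 58.9 CPM in cKO (log2 fold change 1.37, SE 0.11). GENCODE places Gm49368 over Itgam on the same strand. In these 2 genes the libraries of a group differed by at most 1.25 times.

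The other 3 shared genes lay between 0.202 and 1.54 CPM in WT and had larger log2 fold changes. Rab44, encoding a large Rab GTPase of granulocytes and mast cells, went from 0.317 and 1.54 CPM to 8.11 and 11.2 CPM (log2 fold change 3.41, SE 0.53). Clec5a, a receptor that signals through DAP12, went from 0.202 and 0.623 CPM to 3.27 and 3.65 CPM (log2 fold change 3.09, SE 0.41). Trem3, another activating receptor, went from 0.259 and 0.788 CPM to 3.85 and 4.11 CPM (log2 fold change 2.95, SE 0.41). Their WT libraries were 3.04 to 4.87 times apart, whereas their cKO libraries were 1.07 to 1.38 times apart.

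Set side by side, the stages differed in the median ratio between the libraries of a group, while single genes of a stage could lie far apart. The level in cKO 2 over that in cKO 1 had a median of 1.71 over the 6 primary genes, 1.88 over the 13 secondary genes, 1.37 over the 12 late genes and 1.07 over the 5 shared genes. Over all genes tested the median was 0.999. Single primary genes ranged from 1.51 to 3.52 and secondary genes from 1.04 to 8.04. Late genes ranged from 0.692 to 3.06 and shared genes from 0.931 to 1.38. A ratio of at least 2 was found for 9 of the 36 genes (1.76% of all genes tested): Ms4a3, Ltf, Camp, Ngp, Lcn2, Cebpe, Ly6g, S100a8 and S100a9. WT 2 over WT 1 had medians of 2.78, 2.65, 1.51 and 3.04 in the same order of stages, with 1.01 over all genes, and was at least 2 for 23 of the 36 genes (1.88% of all genes). These ratios compare single libraries, and the difference between stages was not tested.

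**Figure D3:**
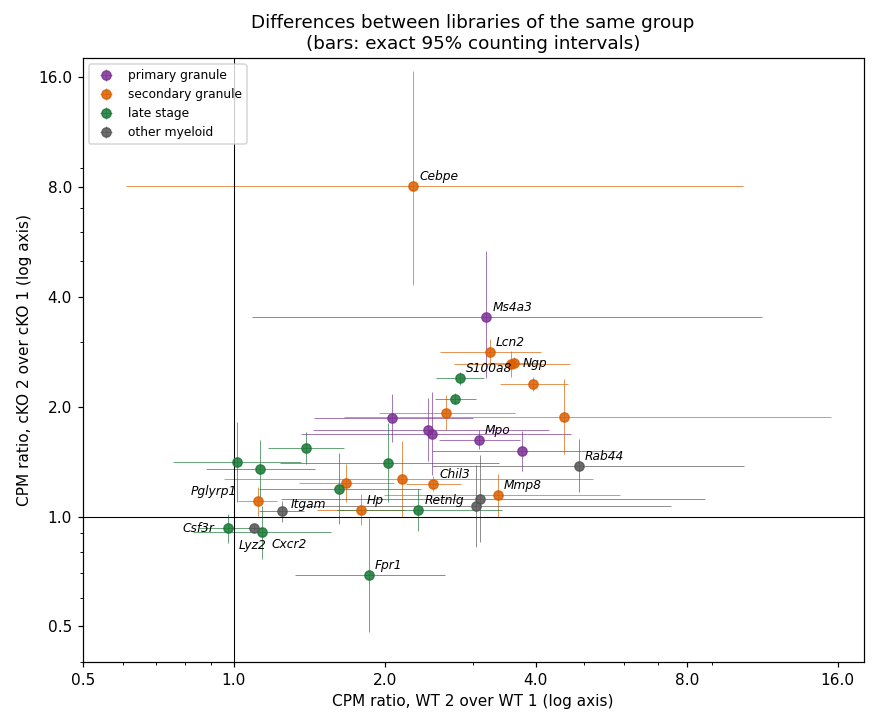
Ratio of CPM between the libraries of a group for 35 genes, WT 2 over WT 1 on the x axis and cKO 2 over cKO 1 on the y axis (log axes), with exact 95% counting intervals; Ly6g, with 3 counts in WT, is not drawn. Ngp, Lcn2 and S100a8 lie high on both axes, Mmp8, Retnlg and Hp are high on the x axis alone, and Cxcr2, Csf3r and Lyz2 lie near 1 on both.

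Counts of genes set against each other inside a library show how far genes kept their proportions. There were 1.69, 1.54, 1.44 and 1.65 counts of Ngp per count of Ltf in WT 1, WT 2, cKO 1 and cKO 2. S100a8 per S100a9 gave 0.694, 0.709, 0.657 and 0.749, and Elane per Mpo 0.195, 0.237, 0.250 and 0.233. These proportions moved little beside the levels themselves, Mpo going from 4.58 CPM in WT 1 to 86.9 CPM in cKO 2, although for Ngp per Ltf the exact 95% counting intervals of cKO 1 (1.37 to 1.52) and cKO 2 (1.60 to 1.70) did not overlap, nor did those for S100a8 per S100a9 (0.628 to 0.689 and 0.728 to 0.770). Genes set against Cxcr2 moved more, the late gene Retnlg among them, with 0.530, 1.08, 1.48 and 1.71 counts of Retnlg per count of Cxcr2 in the same order of libraries. Ngp per Cxcr2 was 4.34 in WT 1, 13.8 in WT 2, 13.2 in cKO 1 and 38.5 in cKO 2, and Mpo per Cxcr2 was 1.92, 5.18, 5.56 and 9.97. The counting intervals of Ngp per Cxcr2 overlapped between WT 2 and cKO 1 and between no other libraries. Against Retnlg the proportion of Ngp was 8.18 in WT 1, 12.7 in WT 2, 8.91 in cKO 1 and 22.5 in cKO 2, so that cKO 2 stood apart from the other libraries.

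Leaving out a library changed sizes more than calls. The number of the 36 genes that rose was 25 without WT 1 (6.41% of all genes), 31 without WT 2 (10% of all genes), 33 without cKO 1 (8.22%) and 30 without cKO 2 (8.81%), and none fell in any of these fits. The median log2 fold change over the 36 genes came to 2.23 and 3.60 on leaving out WT 1 and WT 2, and to 3.03 and 2.10 on leaving out cKO 1 and cKO 2. Of the 32 genes that rose, 21 had a fold more than 1.5 times larger without WT 2, 12 a fold more than 1.5 times smaller without WT 1, 8 a fold smaller by as much without cKO 2 and 1, Ms4a3, a fold larger by as much without cKO 1. The 10 genes whose fold moved by less than that in all 4 fits were Hp, Ifitm6, Mmp9, Cxcr2, Fpr2, Padi4, Csf3r, Trem1, Lyz2 and Itgam.

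Other genes known from neutrophils rose more often than they fell. From a list of 27, 19 could be tested, of which 11 rose, 1 (Il1r2) fell and 7 missed the threshold. Among all genes tested 16.5% rose. The median log2 fold change over the 19 was 0.95. The largest log2 fold changes were those of Wfdc21 (3.16, SE 0.44), Alox5 (3.06, SE 0.57), Prss57 (2.98, SE 0.72) and Olfm4 (2.82, SE 0.56). In WT these 4 genes lay at 0.886 CPM or less. Alox5ap, needed for leukotriene synthesis, rose by 1.07 on the log2 scale (SE 0.10), the glutathione transferase gene Mgst1 by 1.86 (SE 0.21) and the mast cell-expressed membrane protein gene Mcemp1 by 1.30 (SE 0.16). Il1r2, the decoy receptor of interleukin 1 that is also known from activated Treg cells, fell from 24.6 and 21.8 CPM to 12.0 and 14.2 CPM (log2 fold change -0.82, SE 0.11, edgeR adjusted p = 0.00604). Mrgpra2b and Bpi had 0 counts in both WT libraries, and Mrgpra2b had 1 and 17 and Bpi 2 and 0 counts in cKO. The summed level of the list was 91.5 and 114 CPM in WT and 152 and 162 CPM in cKO.

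Transcription factors of granulocyte development moved in both directions. Among the 8 tested, 3 rose, 1 fell and 4 missed the threshold, with a median log2 fold change of -0.08. Of all genes tested 16.5% rose and 15.1% fell, so movement in both directions is not particular to these factors. Spi1, which encodes PU.1, rose from 19.0 and 20.5 CPM to 39.2 and 35.9 CPM (log2 fold change 0.92, SE 0.08), Irf8 by 0.54 and Cebpd by 0.89 on the log2 scale, and Runx1 fell by 0.35. Cebpa, the factor of early granulocyte commitment, measured 15.7 and 20.4 CPM in WT and 19.7 and 13.5 CPM in cKO, and Gfi1 51.4 and 48.3 CPM in WT and 44.1 and 52.7 CPM in cKO. Neither passed, and neither stood in the order of libraries of the granule genes. B cells, monocytes and T cells also express several of these factors.

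Markers of other cell types moved in the same libraries, in which 16.5% of all genes tested rose and 15.1% fell. In the basophil and mast cell list 6 of 7 genes rose, with a summed level of 3.14 and 4.86 CPM in WT and 20.7 and 35.3 CPM in cKO. The basophil protease gene Prss34 stood in the order of libraries of the primary genes, at 0.144, 1.08, 7.32 and 14.9 CPM. In the eosinophil list 6 of 8 rose (24.5 and 34.3 CPM in WT, 45.2 and 56.0 CPM in cKO), Siglecf having 2 and 1 counts in WT and 21 and 25 in cKO. Of the 4 progenitor genes tested 3 rose, Cd34 from 3 and 10 counts to 43 and 61, while Hoxa9 had 0 counts in both WT libraries and 1 and 0 in cKO.

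In the monocyte and macrophage list 4 of 16 genes rose (16.5% of all genes tested), none fell (15.1%) and 12 missed the threshold. The summed level was 337 and 504 CPM in WT and 513 and 387 CPM in cKO. The 4 that rose, Ly6c2 (23.2, 35.4, 87.7 and 84.9 CPM over WT 1, WT 2, cKO 1 and cKO 2), F13a1, Cx3cr1 and Cd300e, are known from monocytes. Csf1r, the growth factor receptor of macrophages, did not pass and had its highest level in WT 2 (92.0, 151, 134 and 84.1 CPM). Of 10 pan T cell genes, 7 fell and 3 did not pass (5404 and 5207 CPM in WT, 4183 and 4557 CPM in cKO). In the B cell list 1 of 6 rose, close to the share of all genes. Its summed level was highest in cKO 2 (232 CPM, against 100, 120 and 128 CPM in WT 1, WT 2 and cKO 1). All 5 proliferation genes rose, with Mki67 at 167 and 198 CPM in WT and 375 and 336 CPM in cKO. Of 9 erythroid and platelet genes tested 1 rose, and their summed level had another order of libraries (681 and 244 CPM in WT, 186 and 528 CPM in cKO). Of 6 Treg genes, 1 (Il2ra) rose and 3 (Foxp3, Ikzf4 and Tnfrsf18) fell. The part of any of these cell types in the neutrophil result was not tested.

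**Figure D4:**
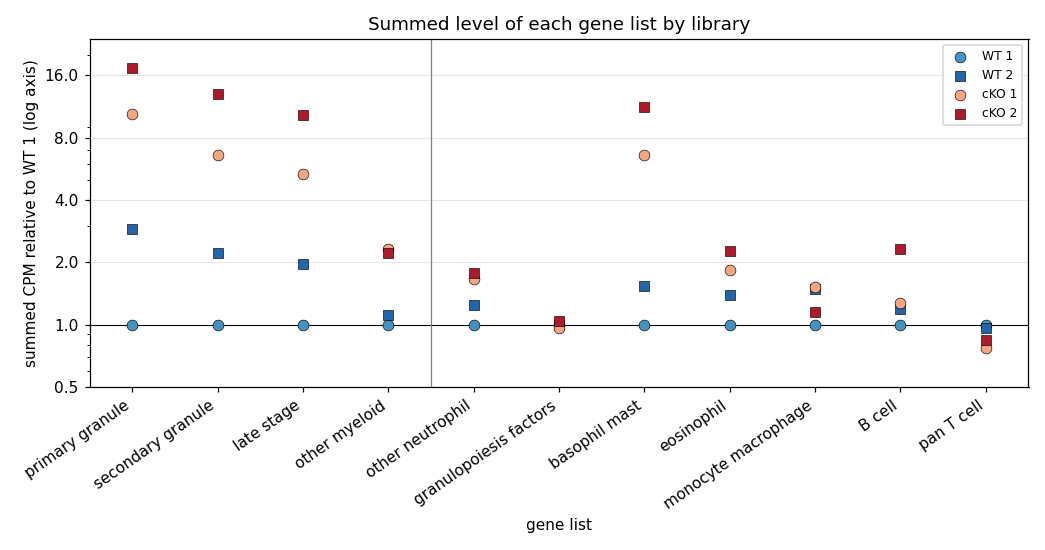
Summed CPM of each gene list in each library relative to WT 1 (log axis), with the 4 stages of neutrophil genes at left and the other lists at right. The primary list reached 10.5 times the WT 1 level in cKO 1 and 17.4 times in cKO 2, the basophil and mast cell list 11.2 times in cKO 2. The sum of the granulopoiesis factors stayed between 0.966 and 1.04 times, although in it 3 genes (Spi1, Irf8 and Cebpd) rose and 1 (Runx1) fell.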

How the data were processed

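RNA of 4 libraries was compared, 2 labelled WT and 2 labelled cKO. The authors deposited 1 table of raw read counts per gene, whole numbers with no scaling. Reads were mapped to mm10, as the submitters' processing notes state. Which aligner, counter, annotation and strand setting were used is not given in the sources used here. Groups were compared with edgeR 4.0.16 in R 4.3.3 (filterByExpr with minimum count 10 and minimum total 15, TMM, glmQLFit and glmQLFTest, group as the only term). Tests were 2-sided and p-values were adjusted by Benjamini-Hochberg over the 13861 genes kept. The standard error (SE) is the absolute log2 fold change over the square root of F. Ratios of 2 libraries have exact conditional binomial 95% intervals. Gene positions and promoter windows came from RefSeq GRCm38.p6, exon lengths (union over transcripts) and overlaps from GENCODE. The test was checked on simulated counts. The members and lists were chosen with earlier results of these data known. Members averaging 1 CPM or more are given by library, and of other lists up to 4 with the smallest p are named, plus genes at 0 in a group. Cd3e, Csf1r, Cebpa, Gfi1, Wfdc21, Alox5, Prss57 and Olfm4 were chosen after their values were seen. Alternatives were DESeq2 1.42.0, limma-voom (limma 3.58.1), scaling by RLE or by upper quartile, other filters, thinning to the smallest library, a replicate block, leaving out each library and a threshold of 0.1. Of the listed genes, 2 neutrophil genes, Stfa2 and BC100530, were not analysed here.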

Additional observations from a re-analysis of the deposited data

How the results depend on the processing

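Between 31 and 34 of the 36 neutrophil genes rose, and 0 fell, with RLE and upper-quartile scaling, DESeq2, limma-voom, no filter, a filter of 1 CPM in 2 libraries (35 tested), thinning, the threshold of 0.1 and both replicate blocks. No gene that rose in the full comparison had the opposite sign in any alternative run, but these fits share libraries. Leaving out 1 library gave 25 to 33 genes that rose, 0 to 0 that fell, and 1877 to 2771 called among all genes, against 4380, with the lone library of a group assumed to vary like those of the other group. Limma-voom lost Ms4a3 (adjusted p = 0.0587). Cebpe passed at the threshold of 0.1, and its adjusted p ran from 1.48e-04 to 0.404 over the alternatives. Among genes that did not pass, the log2 fold change of Pglyrp1 turned to 0.011 with upper-quartile scaling and ran from -0.093 to 0.064 without single libraries, and that of Fpr1 from -0.53 to 0.36. The replicate number as a block gave 2292 called genes overall and 33 of the 36 higher. The deviations of WT 1 and cKO 1 from their group means had a correlation of -0.32 across genes, so a block of crossed numbers was added after seeing the data: it gave 6713 called genes and 34 of the 36. Cebpe passed in both blocks (adjusted p = 0.0300 and 1.48e-04) and Mmp25 in the crossed block alone (0.0107). The labels do not say that the numbers pair the libraries. Depth limits Ly6g, Cebpe, Ms4a3, Chil1, Lrg1 and Clec5a, whose WT libraries hold 1 to 20 counts, so their folds are imprecise.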
